A study of Homo sapiens with 4 samples.

Results

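The m6A reader proteins are the RNA-binding proteins that recognise N6-methyladenosine (m6A) in RNA, and their transcripts were examined in HaCaT cells after knockdown of the m6A demethylase ALKBH5. The members were the genes whose symbol in the deposited tables is YTHDF1, YTHDF2, YTHDF3, YTHDC1, YTHDC2, IGF2BP1, IGF2BP2, IGF2BP3, HNRNPA2B1 or HNRNPC, and all 10 were found among the 58735 genes of the tables. HaCaT is an established line of human keratinocytes. It was transfected with an siRNA against ALKBH5 (siALKBH5, 2 libraries) or with a normal control siRNA (siControl, 2 libraries), and poly-A RNA was sequenced. Both groups went through lipofection, the siControl cells are labelled as wild type, and the knockdown is transient in a single cell line. The study used more than a single siRNA against ALKBH5, and the labels do not say which was used in either siALKBH5 library. No time of harvest is given in the sources used here.

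m6A is placed on RNA by a methyltransferase complex built around METTL3 and METTL14 (writers), is removed by ALKBH5 and FTO (erasers), and acts through the proteins that bind it (readers). Proteins with a YTH domain hold the methylated base in an aromatic pocket. Of these, the cytoplasmic YTHDF proteins shorten the life of methylated mRNAs, the nuclear YTHDC1 acts in splicing and export, and YTHDC2 is an RNA helicase best known from the germ line. The IGF2BP proteins bind through KH domains and stabilise their targets, whereas HNRNPC and HNRNPA2B1 are nuclear splicing factors whose binding is altered by m6A, in part because the mark opens RNA structure. In skin, the study behind these data asked how ALKBH5 acts in keratinocytes, and examined the binding of YTHDF readers to the mRNA of PELI2, an E3 ubiquitin ligase.

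Library totals were between 16017502 and 18837807 counts on genes, and levels are given as CPM (counts scaled to the library total) after TMM scaling, with scaling factors between 0.992 and 1.01. The targeted gene ALKBH5 received 1512 and 1576 counts in siControl libraries against 956 and 816 in siALKBH5 libraries. Its log2 fold change was -0.85 (standard error, SE, 0.05, edgeR quasi-likelihood adjusted p = 6.4e-15), so the residual level was 55.5% of the control. The keratinocyte markers KRT5 and KRT14 were abundant in all libraries, with at least 91412 counts each. Of the markers of other skin cells, COL1A2, PDGFRA and TYR had no count and PECAM1 at most 1, whereas COL1A1 had 267 to 310 counts, PMEL 38 to 61, and DCN, LUM, VWF and CDH5 between 15 and 501. The 5 fibroblast markers summed to 21.9 and 22.8 CPM in siControl and 18.69 and 18.96 CPM in siALKBH5, with most of the sum from COL1A1, and DCN and LUM lower by edgeR. The 8 keratinocyte markers summed to 17686 and 17290 CPM in siControl and 23036 and 23090 CPM in siALKBH5, but this sum follows its most abundant keratins. By edgeR 3 of the 8 were higher (KRT5, KRT6A and KRT14) and 4 lower (TP63, KRT17, ITGA6 and ITGB4), with a median log2 fold change of -0.044. The part of these differences in the results on the readers was not tested. Counts of the libraries of a group differed by more than sampling noise, with a mean chi-square per gene of 1.79 in siControl and 1.93 in siALKBH5, where sampling alone gives 1. Whether they came from separate cultures is not stated in the labels, so the p-values measure only the spread between these libraries, which may be technical.

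Sequences from the study's work on YTHDF2 are shown first, because they place the reader beside a transcript and beside the siRNA made against it. The siRNA against YTHDF2 that the study designed, which was not used in the libraries examined here, matched the transcripts of 1 gene. Its 21-base target lies in the coding sequence of YTHDF2, in exon 4 of the 5 exons of the longest coding transcript, at chr1:28742600-28742620 (GRCh38, plus strand). The RNA probes designed for pull-down hold 2 RRACH motifs (R, A or G, and H, A, C or T) of the last exon of PELI2, exon 6 of 6, both in its coding sequence on the plus strand of chromosome 14. The first lies at chr14:56296974-56296992 and the second at chr14:56297004-56297022, each shown with 9 bases on either side of the adenosine that can be methylated. Capitals mark the motif, whose central A is that adenosine.
YTHDF2 siRNA target: cctaggtagcactccatttct
PELI2 site 1: agacgcaGGACCgccaact
PELI2 site 2: tccctgtGGACAcgtgtgc

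To compare the levels of different readers, the CPM after TMM scaling was divided by the gene length in the tables (FPKM, recomputed from the counts). This length covers all annotated exon bases of a gene, 7309 for HNRNPC and 9267 for HNRNPA2B1. Their longest coding transcripts have 4501 and 3664 bases, so the order of readers depends in part on the length used. By this measure HNRNPC was the most abundant reader, at 66.7 ± 0.438 FPKM (SD, n = 2) in siControl, and HNRNPA2B1 followed at 55.2 ± 0.669 (SD, n = 2). Without division by length HNRNPA2B1 was the higher in siControl, at 512.0 CPM against 487.4 for HNRNPC. These splicing factors ranked 528 and 627 by level among the 58735 genes. Below them came IGF2BP2 at 22.2 ± 0.149 FPKM (SD, n = 2) and YTHDF1 at 20.9 ± 0.433 (SD, n = 2). IGF2BP2 was the highest of the cytoplasmic readers in each of the 4 libraries, but its mean exceeded that of YTHDF1 by a factor of only 1.07. YTHDF2 and YTHDF3 stood at 15.2 ± 0.803 and 14.3 ± 1.01 FPKM (SD, n = 2 each) in siControl, and YTHDC1 at 9.88 ± 0.692 (SD, n = 2). IGF2BP3 and YTHDC2 were the lowest readers that were detected, at 5.39 ± 0.101 and 2.50 ± 0.158 FPKM (SD, n = 2 each). Over the 4 libraries, the ranges of neighbours in this order overlapped for YTHDF2 and YTHDF3, which spanned 14.6 to 15.8 and 12.0 to 15.0 FPKM, and for no other neighbouring pair.

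**Figure D1:**
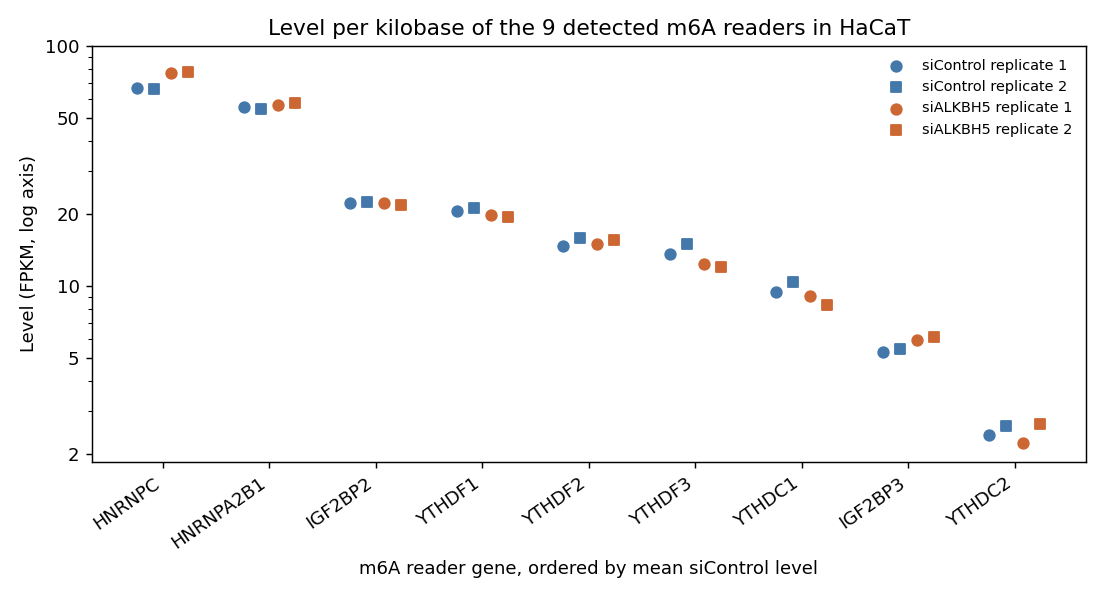
Level of the 9 detected m6A readers in FPKM on a log axis, with 1 point per library (blue siControl, orange siALKBH5, circles replicate 1, squares replicate 2). HNRNPC and HNRNPA2B1 lie above 50 FPKM and YTHDC2 between 2.21 and 2.67, and the order of the readers is the same in every library.

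IGF2BP1 was not detected. This paralog of IGF2BP2 and IGF2BP3 is an oncofetal protein, abundant in the embryo and in many tumours and rare in adult tissue. It had 0 counts in all 4 libraries, which at 3 counts per library allows a level of up to 0.159 to 0.187 CPM, for counting error only. The gene (ENSG00000159217, chromosome 17 from 48997412 to 49055650) was therefore not tested, and no fold change is given. Only 1.24% of its exon bases are shared with another gene, and none of the 100-base words of its longest coding transcript occurred in transcripts of another gene. The depth of these libraries limits the statement to the level named above.

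With 9 readers tested, siALKBH5 differed from siControl for 4 of them at an adjusted p under 0.05 by edgeR. HNRNPC and IGF2BP3 rose, by 16.4% and 12.4% of the siControl mean, and YTHDF3 and YTHDC1 fell by 14.6% and 11.9%. Over all 15075 genes tested, 19.3% were called higher and 17.3% lower, or 36.6% in either direction, against 44.4% of the readers, so the share of readers called is near the background. No reader reached a log2 fold change of 1 in size beside an adjusted p under 0.05, which 2.92% of all genes did. The median absolute log2 fold change was 0.097 for the readers and 0.20 for all genes. The median standard error was also smaller for the readers, at 0.052 against 0.10 for all genes, and its part in this gap was not tested. The libraries come from bulk RNA, in which fewer cells of a kind and less RNA per cell cannot be told apart. With DESeq2 in place of edgeR, HNRNPC was called higher and YTHDF3 lower, and no other reader was called. In siALKBH5, 3 readers lay above both siControl libraries and 4 lay below both, where 32.8% and 33.5% of all genes did.

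**Figure D2:**
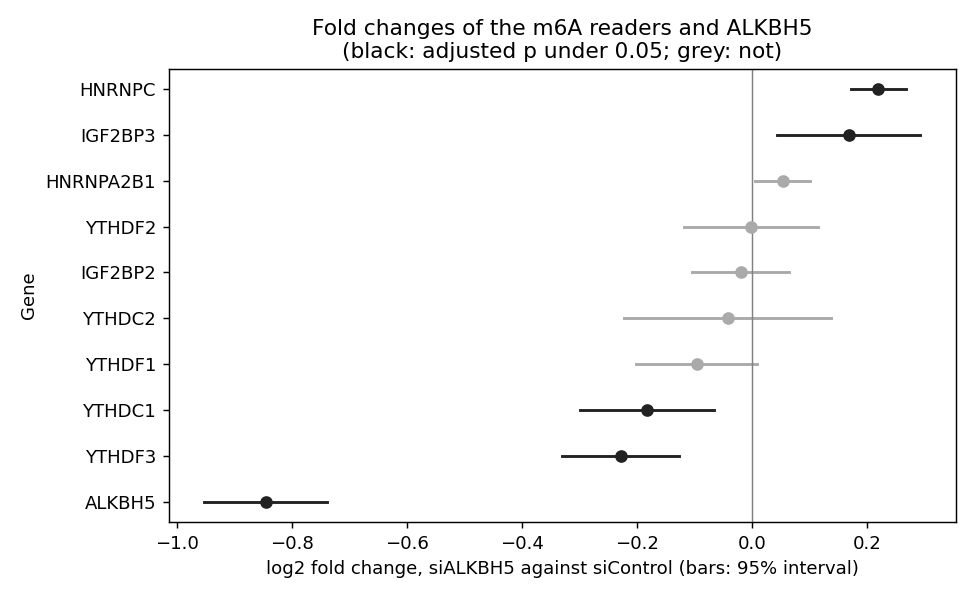
Log2 fold change of the 9 readers tested and of ALKBH5, siALKBH5 against siControl, with 95% intervals from the edgeR fit (black, adjusted p under 0.05, and grey, above it). HNRNPC at 0.22 and IGF2BP3 at 0.17 lie right of 0, YTHDC1 at -0.18 and YTHDF3 at -0.23 lie left of it, and all are far smaller than ALKBH5 at -0.85.

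Among the YTHDF proteins, YTHDF3 was the member that passed the test. YTHDF3 (ENSG00000185728, chromosome 8) binds the same methylated transcripts as its paralogs and acts with them in translation and decay. It received 1347 and 1662 counts in siControl libraries against 1421 and 1221 in siALKBH5 libraries, which correspond to 83.6 and 92.4 CPM against 76.1 and 74.2 CPM. Each siALKBH5 library lay under each siControl library, and the siControl libraries stood further apart from each other than the siALKBH5 libraries did. The mean fell from 88.0 ± 6.20 to 75.1 ± 1.33 CPM (SD, n = 2 each), a log2 fold change of -0.23 (SE 0.05, 95% interval -0.33 to -0.13, edgeR quasi-likelihood adjusted p = 4.0e-04). The higher siControl library carried part of this difference. Without siControl replicate 2 the log2 fold change was -0.15 with an adjusted p of 0.051 by edgeR, and with each of the other libraries left out it stayed between -0.29 and -0.21 and was called.

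YTHDF2 (ENSG00000198492, chromosome 1 from 28736621 to 28769775) recruits the CCR4-NOT deadenylase to methylated mRNAs and is the reader whose siRNA target is shown above. The transcript received 910 and 1095 counts in siControl libraries against 1074 and 985 in siALKBH5 libraries, or 56.5 and 60.9 against 57.5 and 59.9 CPM. The siALKBH5 libraries lay between the siControl libraries, and the means were the same to 3 digits, at 58.7 ± 3.10 and 58.7 ± 1.66 CPM (SD, n = 2 each). The log2 fold change was -0.0025 (SE 0.06, edgeR quasi-likelihood adjusted p = 0.98), and its 95% interval ran from -0.12 to 0.11. Differences beyond a decrease of 7.88% or an increase of 8.17% lie outside this interval. Of the 100-base words of its longest coding transcript, 3.26% occur in the pseudogene YTHDF2P1, which had at most 4 counts in a library.

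YTHDF1 (ENSG00000149658, chromosome 20 from 63195429 to 63216234) is best known for promoting the translation of methylated mRNAs. Its level was 67.9 and 69.9 CPM in siControl and 64.9 and 64.0 CPM in siALKBH5, from 1053 to 1258 counts. The siALKBH5 libraries were lower without overlap, but the log2 fold change of -0.097 did not pass the test (SE 0.05, 95% interval -0.20 to 0.0079, edgeR quasi-likelihood adjusted p = 0.15). All 3 YTHDF genes share no exon base with another annotated gene, and for YTHDF3 an antisense-named gene of its locus, YTHDF3-AS1, had 8 to 14 counts.

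**Figure D3:**
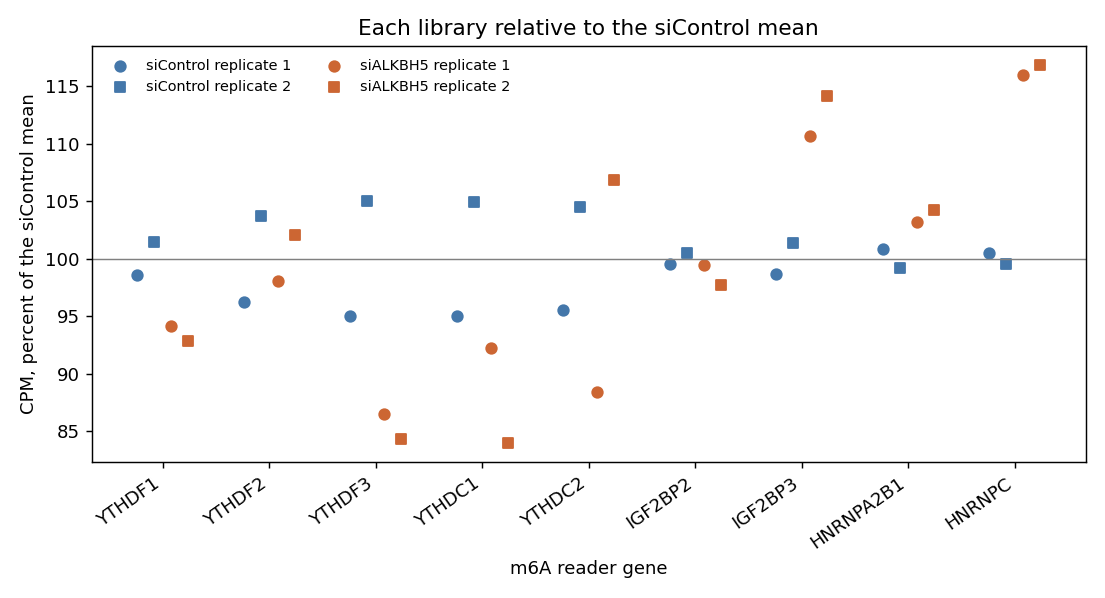
Level of each detected reader in every library as a percentage of its siControl mean in CPM (grey line at 100%, blue siControl, orange siALKBH5, circles replicate 1, squares replicate 2). The siALKBH5 libraries lie clear of the siControl libraries for HNRNPC and YTHDF3, whereas YTHDF2 and YTHDC2 overlap.

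The nuclear reader YTHDC1 fell and the helicase YTHDC2 did not pass the test. YTHDC1 (ENSG00000083896, chromosome 4 from 68310387 to 68350089) binds m6A in the nucleus and recruits splicing and export factors. It received 1064 and 1312 counts in siControl libraries against 1197 and 960 in siALKBH5 libraries, or 66.0 and 72.9 against 64.1 and 58.3 CPM. The groups did not overlap, but the lower siControl library and the higher siALKBH5 library differed by little, and these were the libraries of replicate 1. Its log2 fold change was -0.18 (SE 0.06, 95% interval -0.30 to -0.066, edgeR quasi-likelihood adjusted p = 0.012). The difference within replicate 1 was -0.043 and that within replicate 2 was -0.32 on the log2 scale. The call was lost without siControl replicate 2, at a log2 fold change of -0.11 and an adjusted p of 0.27 by edgeR, and without siALKBH5 replicate 2, at -0.12 and 0.19. With DESeq2 the log2 fold change was -0.18 and the adjusted p 0.089.

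YTHDC2 (ENSG00000047188, chromosome 5 from 113513683 to 113595285) received 416 and 508 counts in siControl libraries against 446 and 475 in siALKBH5 libraries. These correspond to 25.8 and 28.2 against 23.9 and 28.9 CPM, and the siALKBH5 libraries enclosed the siControl libraries. Its log2 fold change was -0.043 (SE 0.09, 95% interval -0.22 to 0.14, edgeR quasi-likelihood adjusted p = 0.75). YTHDC2 is the reader with the fewest counts among those tested and the one with the widest interval.

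Of the IGF2BP paralogs, IGF2BP3 rose in the test and IGF2BP2 did not pass it. IGF2BP3 (ENSG00000136231, chromosome 7 from 23310209 to 23470467) is, like IGF2BP1, mostly embryonic and returns in tumours. It received 729 and 836 counts in siControl libraries against 948 and 861 in siALKBH5 libraries, or 45.2 and 46.5 against 50.8 and 52.3 CPM. Both siALKBH5 libraries were above both siControl libraries, and the difference within replicate 1 and that within replicate 2 were each 0.17 on the log2 scale. Its log2 fold change was 0.17 (SE 0.06, 95% interval 0.043 to 0.29, edgeR quasi-likelihood adjusted p = 0.030). The call did not hold with any single library left out, where the log2 fold change was 0.15 to 0.19 and the adjusted p 0.051 to 0.14 by edgeR. With DESeq2 its adjusted p was 0.13, and with library size as the only scaling it was 0.061 by edgeR.

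IGF2BP3 shares part of its exon sequence with a neighbour, which, like CBX3 named later, was added after its values were seen. Of its exon bases, 17.9% (1521 bases) are also exon of MALSU1, a mitochondrial ribosome assembly factor on the opposite strand, and 35.1% of the 100-base words of its longest coding transcript occur in other genes. The library protocol does not describe a strand mark, so reads from the shared part cannot be assigned to either gene. Whether such reads were counted is not stated, while the length used per kilobase includes the shared bases. MALSU1 received 423 and 444 counts in siControl libraries against 470 and 439 in siALKBH5 libraries, with overlapping groups and a log2 fold change of 0.025 (SE 0.08, edgeR quasi-likelihood adjusted p = 0.85).

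IGF2BP2 (ENSG00000073792, chromosome 3 from 185643739 to 185825056) is the paralog that persists in adult tissue and is linked to metabolism. It received 1689 and 1904 counts in siControl libraries against 1956 and 1694 in siALKBH5 libraries. Its levels of 104.8 and 105.8 against 104.7 and 102.9 CPM lay within a narrow band, with the siALKBH5 libraries lowest. Its log2 fold change was -0.020 (SE 0.04, 95% interval -0.11 to 0.064, edgeR quasi-likelihood adjusted p = 0.75). IGF2BP2-AS1, an antisense gene of the locus, had at most 7 counts.

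The hnRNP readers are the most abundant, and HNRNPC showed the change with the smallest p-value among the readers. HNRNPC (ENSG00000092199, chromosome 14 from 21209136 to 21269494) binds runs of U that m6A makes accessible. It received 7890 and 8729 counts in siControl libraries against 10554 and 9373 in siALKBH5 libraries, or 489.7 and 485.1 against 565.1 and 569.6 CPM. The gap between the groups was far larger than the spread within either. The mean rose from 487.4 ± 3.20 to 567.3 ± 3.18 CPM (SD, n = 2 each), with a log2 fold change of 0.22 (SE 0.02, 95% interval 0.17 to 0.27, edgeR quasi-likelihood adjusted p = 2.4e-09). HNRNPC was called under each of the 12 alternatives tried, at log2 fold changes between 0.19 and 0.23.

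HNRNPC has 13 genes named as copies in the tables, of which 4 had any count. HNRNPCP2, a processed pseudogene on chromosome 2, received 189 and 213 counts in siControl libraries against 235 and 236 in siALKBH5 libraries, and 3.50% of the 100-base words of the longest HNRNPC transcript occur in it. All copies together came to at most 2.63% of the HNRNPC counts of a library. The number of reads that match HNRNPC and a copy alike cannot be told from these counts. The log2 fold change of HNRNPCP2 was 0.19 (SE 0.12, edgeR quasi-likelihood adjusted p = 0.23).

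HNRNPA2B1 (ENSG00000122566, chromosome 7 from 26173057 to 26201529) is described as a nuclear reader that helps the microprocessor act on primary microRNAs. It received 8320 and 9133 counts in siControl libraries against 9865 and 8782 in siALKBH5 libraries, or 516.4 and 507.6 against 528.2 and 533.6 CPM. Both siALKBH5 libraries were higher, but the mean was only 103.7% of the control, and the log2 fold change of 0.052 did not pass the test (SE 0.02, 95% interval 0.0047 to 0.10, edgeR quasi-likelihood adjusted p = 0.080). Of its exon bases 3.97% are shared with CBX3 on the opposite strand, a heterochromatin protein gene with 2618 to 3090 counts and a log2 fold change of -0.10 (SE 0.04, edgeR quasi-likelihood adjusted p = 0.031). The ratio of HNRNPC to HNRNPA2B1 per kilobase does not depend on the scaling of libraries. It was 1.202 and 1.212 in siControl and 1.356 and 1.353 in siALKBH5, so the gap between the groups exceeded the spread within them.

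The make-up of the paralog families was compared as the share of each gene in the summed level per kilobase. Lengths were again all annotated exon bases, 3301, 3859 and 6163 for YTHDF1, YTHDF2 and YTHDF3. For IGF2BP2 and IGF2BP3 they were 4735 and 8511. The longest coding transcripts of these genes have 3301, 2925, 5193, 3688 and 4250 bases, in the same order. The size of each share and ratio between genes therefore depends on the length used. YTHDF1 held 42.2% and 40.8% of the YTHDF sum in siControl and 41.9% and 41.3% in siALKBH5, and the groups overlapped. YTHDF2 held 30.0% and 30.4% in siControl and 31.8% and 33.0% in siALKBH5. YTHDF3 held 27.8% and 28.9% in siControl and 26.3% and 25.7% in siALKBH5. The share of YTHDF2 was thus higher and that of YTHDF3 lower without overlap, although the groups overlapped in the level of YTHDF2 itself. The summed level of the 3 genes was 50.4 ± 2.24 FPKM in siControl and 46.9 ± 0.0211 in siALKBH5 (SD, n = 2 each). The ratio of YTHDF3 to YTHDF2 was 0.927 and 0.950 in siControl and 0.828 and 0.776 in siALKBH5.

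In the IGF2BP family, IGF2BP2 held 80.6% and 80.4% of the sum in siControl and 78.8% and 78.0% in siALKBH5, and IGF2BP3 held the rest. The ratio of IGF2BP2 to IGF2BP3 was 4.16 and 4.09 in siControl and 3.71 and 3.54 in siALKBH5. These shares are descriptions of 2 libraries per group, with no test, and those of IGF2BP3 depend on the part shared with MALSU1. Without division by length, YTHDF3 and not YTHDF1 was the largest contributor of reads, at 40.8% of the YTHDF reads in siControl, because its exons are longer.

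**Figure D4:**
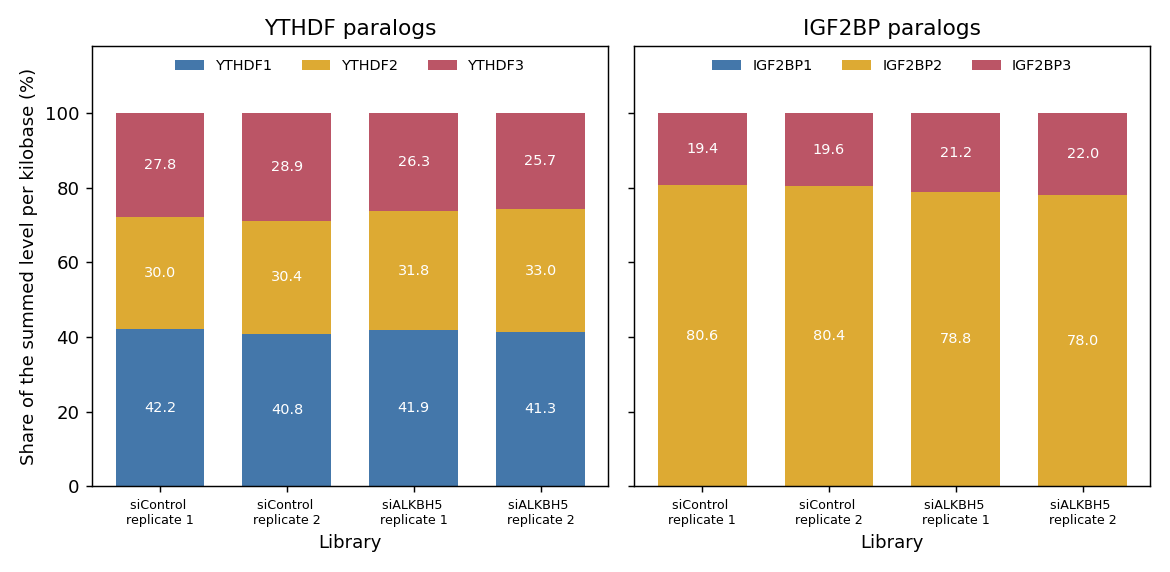
Share of each paralog in the summed level per kilobase of the YTHDF family (left) and the IGF2BP family (right), in percent, with 1 stacked bar per library from 0 to 100%. YTHDF3 takes 27.8% and 28.9% in siControl and 26.3% and 25.7% in siALKBH5, and IGF2BP1 has no share in any library.

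The other genes of the m6A pathway were counted in the same test, each list beside the 19.3% of all genes called higher and the 17.3% called lower. Of the 9 writer genes, 2 fell, 0 rose and 7 did not pass the test by edgeR. No writer was higher at an unadjusted p under 0.05 or by DESeq2, where the count was also 0. The genes that fell were METTL14, the RNA-binding partner of METTL3, at a log2 fold change of -0.34, and WTAP, the adaptor of the complex, at -0.23. Of the erasers, ALKBH5 fell and FTO did not pass the test. Of 9 other proteins reported to bind m6A, 5 rose and 3 fell. PRRC2A, reported to stabilise methylated mRNAs, rose by 0.34 on the log2 scale, FXR2 by 0.26 and SND1 by 0.26, and EIF3A, FXR1 and FMR1 fell.

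The partners through which the readers act went in both directions. Of the 10 CCR4-NOT subunits, 3 rose and 2 fell by edgeR, but with DESeq2 only 1 was higher and 0 were lower. CNOT1, the scaffold that YTHDF2 binds, rose with a log2 fold change of 0.20 (SE 0.03, edgeR quasi-likelihood adjusted p = 1.8e-07). CNOT6L, a catalytic deadenylase, fell by 0.26 on the log2 scale, and CNOT2 fell by 0.19. Of 13 genes for RIDA, UPF1 and RNase P/MRP, the second route of YTHDF2 to decay, 12 were tested, 3 rose and 1 fell. POP1 and POP7, protein subunits of RNase P/MRP, rose by 0.54 and 0.32 on the log2 scale, and RPP25L fell by 0.28 by edgeR, whereas with DESeq2 the number of genes lower in this list was 0. RIDA, the adaptor of this route, had a log2 fold change of 0.29 (SE 0.13, edgeR quasi-likelihood adjusted p = 0.093).

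Of the 6 partners of YTHDC1 and YTHDC2, 5 were tested, 2 rose and 2 fell by edgeR, and 1 was lower with DESeq2. The splicing factor SRSF3, which YTHDC1 recruits, rose by 0.30 on the log2 scale and SRSF10, which YTHDC1 is reported to hold back, fell by 0.23. XRN1, the exonuclease that binds YTHDC2, fell by 0.18. Of the 7 IGF2BP partners, 3 rose and 2 fell, with YBX1 at 0.31 and ELAVL1, which also stands among the other m6A-binding proteins, at 0.19 among the higher and HNRNPU at -0.19 among the lower. MATR3 of this list is entered under 2 gene identifiers, with 34 to 66 counts per library in one and 0 to 3 in the other. How reads that match both entries were counted is not stated, so these counts may not give the level of the gene. The entry with more counts stands among the 7 partners, at a log2 fold change of -0.57 (SE 0.25, edgeR quasi-likelihood adjusted p = 0.078). Of 8 textbook IGF2BP targets, 7 were tested, 2 rose and 2 fell. ACTB rose by 0.66 and CD44 by 0.23, HMGA2 fell by 0.34, and MYC, at a log2 fold change of 0.078, did not pass the test (edgeR quasi-likelihood adjusted p = 0.37).

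HNRNPC was set beside the other hnRNP genes. Of 22 such genes, 5 rose and 7 fell by edgeR, and their median log2 fold change was -0.0090, against -0.0081 over all genes tested. HNRNPH2 and HNRNPH1 fell by 0.44 and 0.40 on the log2 scale and HNRNPL rose by 0.30. RALY, a close relative of HNRNPC, had a log2 fold change of 0.020 (SE 0.03, edgeR quasi-likelihood adjusted p = 0.65). The microprocessor genes DROSHA and DGCR8 did not pass the test, at 0.066 and -0.13. The proliferation genes moved with the groups, with 22 of 23 higher by edgeR and a median log2 fold change of 0.81. They summed to 1862 and 1860 CPM in siControl and 3116 and 3099 CPM in siALKBH5, and their part in the differences of the readers was not tested. These are RNA levels, whereas the paper reported unaltered proliferation of HaCaT cells after ALKBH5 knockdown in cell-based assays.

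**Figure D5:**
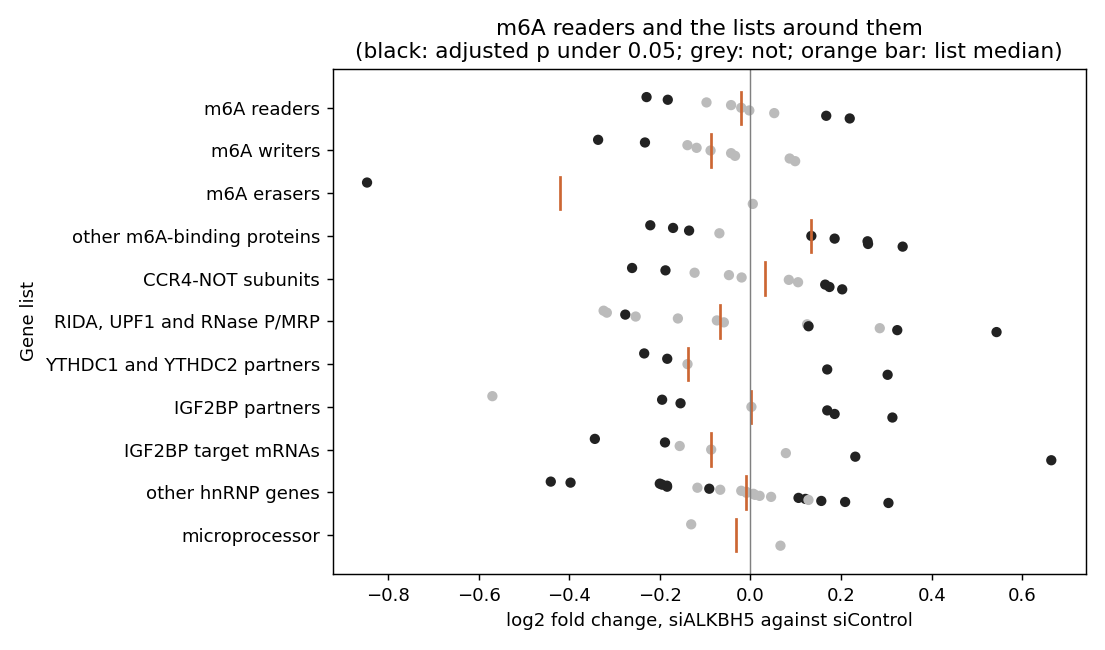
Log2 fold change of each tested gene, siALKBH5 against siControl, for the readers and 10 lists of related genes, without the proliferation genes and cell type markers (black, adjusted p under 0.05 by edgeR, grey, above it, orange bar, list median). Each list shown has genes on both sides of 0, and apart from the erasers, where ALKBH5 sets the median at -0.42, the list medians lie between -0.14 and 0.13.

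YTHDF3 had the log2 fold change of largest size among the readers, and the genes with the most similar pattern over the 4 libraries were sought among 9258 others with a mean of at least 10 CPM. These were TMEM170A, SMARCA2 and ATP13A3, at root mean square distances of 0.0076, 0.0089 and 0.0094 in centred log2 CPM. TMEM170A had 31.3 and 34.1 CPM in siControl and 28.4 and 27.8 CPM in siALKBH5. With 4 libraries, many genes can share such a pattern, and it is given as a description only.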

How the data were processed

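Poly-A RNA-seq libraries of HaCaT cells, 2 siControl and 2 siALKBH5, were compared. Per the labels and the submitters' processing notes, CASAVA, HISAT2 2.0.5, featureCounts 1.5.0-p3 and DESeq2 1.20.0 were used with build hg38. The authors deposited raw counts per gene for each library, and these counts were analysed. The FPKM values that the authors deposited were scaled within each table and were not used, so FPKM was recomputed from the counts and the gene lengths. Columns of fold changes and p-values that were deposited beside them rest on single libraries and were left aside. All 58735 gene identifiers and coordinates matched GENCODE 29, from which exons and transcripts were taken.

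Differences were tested with edgeR 4.0.16 (R 4.3.3, TMM scaling, default expression filter, quasi-likelihood test, group as the only term) on all 15075 genes that passed the filter, with Benjamini-Hochberg adjustment and a threshold of 0.05. The common biological coefficient of variation was 0.0253. Intervals are at 95%. Alternatives were DESeq2 1.42.0, other scalings, no filter, a mean count of at least 10, a replicate block, limma 3.58.1 on log2 FPKM with a pseudocount of 1 or 0.1, and each library left out. Limma used genes with a mean of at least 1 FPKM, scaled there to the library total without TMM. Scripts were tested on simulated data. The floor of 3 counts and the intervals cover counting error or library spread only.

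Named were all readers, ALKBH5, up to 3 genes per list with the largest called change, copies and antisense genes with at least 10 counts, and the 3 genes nearest to the reader with the largest change. Further list members named for their role, among them FTO, RIDA, MYC, RALY, EIF3A, FXR1, FMR1 and the microprocessor genes, and the overlap partners and minor copies, were chosen after their values were seen. The members and lists were chosen with earlier results of these data known.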

Additional observations from a re-analysis of the deposited data

How the results depend on the processing

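Of 25 counts of called genes, 14 stayed within 1.5 times the reported count under all 12 alternatives. The readers called higher (2) numbered 1 with DESeq2, with library size only and with both limma settings, and 1 with any library left out. The readers called lower (2) numbered 1 with DESeq2 and both limma settings, and 0 to 2 with a library left out, with 0 without siControl replicate 2. CCR4-NOT subunits higher (3) numbered 1 with DESeq2, library size only and limma, and 1 to 2 with a library left out, while those lower (2) numbered 0 with DESeq2 and limma and 0 to 2. For RIDA, UPF1 and RNase P/MRP the count lower (1) was 0 with DESeq2 and 2 with library size only, limma and the replicate block. YTHDC1 and YTHDC2 partners lower (2) numbered 1 with DESeq2 and limma and 1 to 2 with a library left out. With limma, other m6A-binding proteins higher (5) numbered 3, and IGF2BP partners lower (2) and IGF2BP targets lower (2) numbered 1 each. With a library left out, these ranges were 4 to 5, 1 to 2 and 1 to 2, writers lower (2) ranged from 1 to 2, and other hnRNP genes higher (5) from 3 to 4. The causes were not tested.

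The sign of YTHDF2, never called, changed to 0.0031 with DESeq2, 0.00033 with DESeq2 size factors, 0.0041 without a filter, 0.00056 with the replicate block, 0.053 without siControl replicate 2 and 0.029 without siALKBH5 replicate 1, in a range from -0.051 to 0.053 with a library left out. That of YTHDC2 changed to 0.025 and 0.094 without the same libraries, in a range from -0.18 to 0.094. With the replicate block, 3 readers were higher and 2 lower, HNRNPA2B1 being added at 0.052 (adjusted p = 0.020 by edgeR). The labels state no pairing of same-numbered libraries, whose deviations correlated at 0.0715 across 11649 genes. Part of these deviations is sampling noise, so this low correlation cannot decide whether the libraries were paired. Depth limits IGF2BP1 to the floor given, and 2 libraries a group limit every interval.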
